A study of Mus musculus with 2 samples.

Results

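Long noncoding RNAs are transcripts over 200 nt that are not read as protein. In the mouse hearts sequenced here, 96 annotated long noncoding RNA genes were abundant, out of 9819 genes of the same annotation classes and 55450 annotated genes in all. The genes were chosen by annotation and by level: every transcript of the gene belonged to a noncoding class of the GENCODE annotation, and the gene's level in the first of the 2 deposited quantifications was at least 3 TPM in both libraries. TPM is a level scaled to transcript length and to the library's total. The classes were lincRNA, antisense, processed transcript, bidirectional promoter lncRNA, macro lncRNA, sense intronic and sense overlapping. A set of 12 names was left out beforehand, of which 10 fell in these classes and 6 would have reached the level: rRNA-like loci, imprinted transcripts and the RNA parts of the mitochondrial RNA-processing and telomerase enzymes. Because the level chose the members, their levels are a description with no test.

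The hearts came from male B6CASTF1/J mice, which are F1 animals of a cross between the B6 and CAST strains and so carry one chromosome set of each, at an age of 36 days. No genotype, transgene or treatment is given by the labels, and there is 1 group with 2 libraries, called replicate 1 and replicate 2. Each library was made from 300 ng of total RNA, with rRNA reduced and with ERCC spike-ins, synthetic RNAs of known amount. The labels call the libraries biological replicates with separate biosamples and give both the same donor entry. Whether they come from 1 animal could not be worked out, and the 2 hearts named below stand for the 2 libraries. The spread between them may thus be partly technical, and an exact sign permutation over 2 samples cannot go below p = 0.5. No groups were compared.

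Long noncoding RNAs work by several routes. Some stay in the nucleus and shape nuclear bodies or chromatin, some bind proteins or microRNAs in the cytoplasm, some carry small nucleolar RNAs or microRNAs in their introns, and for others the act of transcription beside a coding gene is what is known to matter. In heart, Malat1 and Neat1 are nuclear, retained RNAs found in nearly all cell types, and Mhrt is a transcript antisense to the myosin heavy chain genes. Many of the other genes described here have no role assigned by the annotation.

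The sequences behind the best known of these RNAs are given first, from the GENCODE M21 transcripts on mm10. Malat1 and the long form of Neat1 have no poly(A) tail of the usual kind. Their ends are made by cleavage in front of a tRNA-like RNA, and are protected by a triple helix that forms between U-rich stretches and an A-rich tract. The U-rich stretches TTTTTCTTTT and TTTTGCTTTT and the A-rich tract (at least 4 A, then GC, then 4 A) are in capitals. Full-length Malat1 is shown over bases 6596 to 6691 of 6983, at chr19:5795982-5796077 on the minus strand. The long form of Neat1 is shown over bases 20709 to 20771, its annotated end, at chr19:5824708-5824770 on the minus strand. The short form of Neat1 is polyadenylated, and its last 60 bases, at chr19:5842307-5842366 on the minus strand, are shown with its AATAAA in capitals.
Malat1, full length: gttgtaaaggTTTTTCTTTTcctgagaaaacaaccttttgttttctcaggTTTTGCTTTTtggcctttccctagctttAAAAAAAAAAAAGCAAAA
Neat1, long form: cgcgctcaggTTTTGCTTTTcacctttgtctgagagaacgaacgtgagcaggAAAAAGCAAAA
Neat1, short form: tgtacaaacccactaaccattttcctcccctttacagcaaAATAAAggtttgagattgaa
TTTTGCTTTT followed within 100 bases by the A-rich tract, searched on the transcript strand, was found in 4 of 141767 annotated transcripts, which belong to 3 genes. Among the 287 transcripts of the 96 genes it was found in full-length Malat1 and the long form of Neat1. TTTTTCTTTT was found in the last 400 bases of full-length Malat1 and not in those of the long form of Neat1. In the short form of Neat1 the AATAAA ends 14 bases before the annotated end, and 27.1% of all annotated transcripts hold AATAAA in their last 60 bases.

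1700020I14Rik and 2900097C17Rik are the annotation's names for Cyrano (Oip5os1) and Norad. Cyrano carries a site of unusually long pairing to miR-7, through which it is known to lower that microRNA. Norad is a cytoplasmic RNA that binds the Pumilio proteins, repressors of messenger RNA, through repeated copies of their motif. The mature miR-7a-5p, from RefSeq, is shown with its seed (bases 2 to 8) in capitals. The Cyrano site, at chr2:119602137-119602160 on the plus strand, is shown with the seed match and the stretch complementary to the 3′ part of the microRNA in capitals. A stretch of Norad at chr2:156390510-156390550 on the minus strand and the matching stretch of its near copy Gm7292 at chr6:117718745-117718785 on the plus strand are shown with the Pumilio motif TGTANATA in capitals.
miR-7a-5p: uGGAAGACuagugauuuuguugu
Cyrano, 1700020I14Rik: ACAACAAAATCAccaatGTCTTCC
Norad, 2900097C17Rik: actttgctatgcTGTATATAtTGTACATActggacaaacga
Gm7292: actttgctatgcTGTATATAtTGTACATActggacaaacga
The Cyrano transcript of 8300 nt holds the seed match GTCTTCC at bases 762 and 2952. Complementarity to the 3′ part of the microRNA (base 12 onward) ran over 12 letters in front of the match at base 2952 and over 3 letters in front of the other. The seed match on its own was in 13.8% of all annotated transcripts. TGTANATA, searched on the transcript strand, occurred 11 times in Norad's transcript of 4915 nt and 9 times in that of Gm7292, itself one of the 96 genes, and the 41 letters shown are identical in both. Of the 96 genes, 74 had no match, and the next highest counts were 4 in Neat1 and 3 in 9330158H04Rik. Across all annotated transcripts 12.7% held at least 1 match, and 12 of 141767 held 9 or more.

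Malat1 was the most abundant of the 96 genes. It stood at 1151 TPM in replicate 1 and 1252 TPM in replicate 2 (1202 ± 71.5, SD, n = 2), with 118947 and 134917 expected counts. The 2 hearts were close for this gene, and Malat1 (ENSMUSG00000092341.3, lincRNA, chr19:5795690-5802672, minus strand) alone made up 46.3% and 46.6% of the members' summed TPM. Its mean was 9.01 times that of the next gene, and it ranked 27 when placed among the nuclear protein-coding genes and the members. In the second quantification Malat1 averaged 605 TPM, 1.97 times the next gene, Ndufb1-ps, and made up 22.7% and 24.6% of the members' TPM in replicates 1 and 2. In bulk tissue a level per cell and the number of cells that hold the RNA cannot be told apart.

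Below Malat1 came 7 genes of 50 TPM or more. Ndufb1-ps, annotated here as noncoding and by RefSeq as the gene of a respiratory complex I subunit, had 129 TPM in replicate 1 and 137 TPM in replicate 2. Gm15543, an antisense gene of 1 annotated transcript, had 115 and 128 TPM in replicates 1 and 2. 1810058I24Rik, which RefSeq classes as protein-coding, had 92.5 TPM in replicate 1 and 98.0 TPM in replicate 2. In these 3 genes replicate 2 was the higher, and neighbouring genes in this order did not overlap over the 2 hearts. The order is that of the first quantification. In the second, Gm15543 averaged 44.5 TPM, below 1810058I24Rik at 127 TPM and Norad at 75.9 TPM.

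The next 4 genes, in the order Cyrano, Neat1, Norad and C130080G10Rik, each overlapped the next over the 2 hearts. Cyrano had 83.5 TPM in replicate 1 and 85.6 TPM in replicate 2, and Norad 81.2 and 78.7 TPM. Neat1, the scaffold of paraspeckles, had 64.3 TPM in replicate 1 and 101 TPM in replicate 2. C130080G10Rik, which starts beside the cardiac actin gene Actc1, had 72.2 and 80.8 TPM in replicates 1 and 2. Cyrano and Norad differed little between the hearts, while Neat1 spanned the values of the other 3.

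The remaining 88 genes were far lower. In all, 3 genes reached 100 TPM, 26 reached 10 TPM, 70 were under 10 TPM and 39 were under 5 TPM, on the mean of the 2 libraries. The median member stood at 5.74 TPM, against 11.99 TPM for the 8718 protein-coding genes that pass the same level. The 8 highest genes held 72.6% of the members' summed TPM. Of 95 neighbouring pairs in the order of levels, 14 did not overlap over the 2 hearts. Most neighbours therefore have no firm order even within the first quantification.

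**Figure D1:**
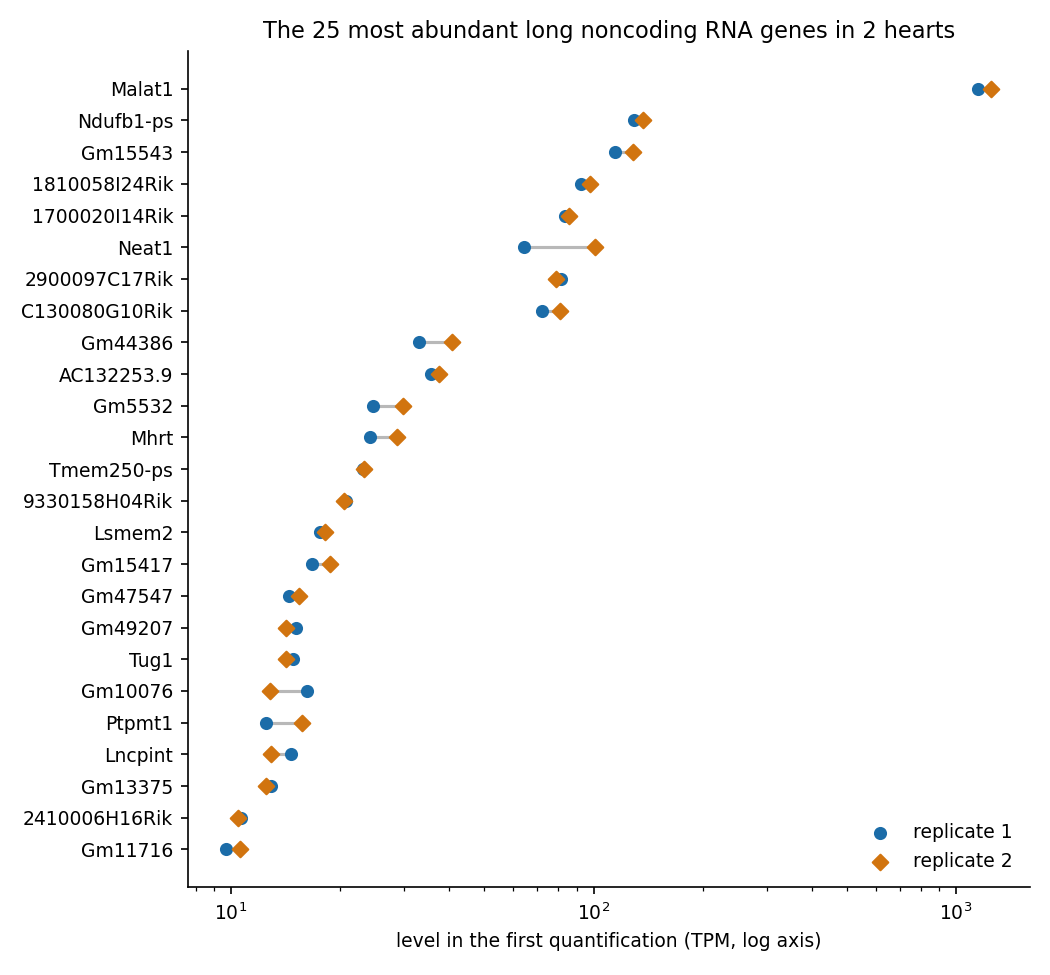
Level of each of the 25 most abundant genes in the first quantification (TPM, log axis), with 1 point per library joined by a line. Malat1 stands apart at 1151 and 1252 TPM, and Neat1, at 64.3 and 101 TPM, has a wide gap between its points.

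The members held 78.1% of the TPM of all 9819 noncoding genes in replicate 1 and 78.9% in replicate 2 (78.5 ± 0.532%, SD, n = 2). They held 0.471% and 0.514% of all expected counts, of which replicate 1 had 41846508 and replicate 2 had 42481559. Of the 9819 genes, 6726 had no count in either library, for which the limit of 3 counts is 0.0717 CPM in replicate 1 and 0.0706 CPM in replicate 2. A further 14 genes reached 3 TPM in 1 library alone. Just inside the threshold were 2810013P06Rik at 3.18 TPM in replicate 1 and 3.01 TPM in replicate 2, 0610009L18Rik at 3.03 and 3.24, Gm46430 at 3.05 and 3.1, 2810001G20Rik at 3.35 and 3.06, and Gm12840 at 5.4 and 3.08. Just outside were Gm16534 at 3.83 TPM in replicate 1 and 2.94 TPM in replicate 2, Gm12167 at 2.79 and 3.77, E430024I08Rik at 2.76 and 3.05, Gm44899 at 2.75 and 3.11, and Gm9917 at 2.69 and 2.74. The genes on both sides of the threshold have nearly the same levels.

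By class, 50 of the members were lincRNA genes, 31 were antisense, 8 came from bidirectional promoters and 7 were processed transcripts. Bidirectional promoter genes made up 8.33% of the members and 1.86% of the other 9723 noncoding genes. The longest transcript had a median of 1564 nt among the members and 944 nt among the others. At least 2 transcripts were annotated for 63.5% of the members and for 24.9% of the others. A single exon was all that was annotated for 14 members (14.6%) and for 7.16% of the others. Chromosome 19 held 9 members (9.38%), with 2.37% of the others, and Malat1 and Neat1 are among them as neighbours. RefSeq names were matched for 70 members, of which RefSeq classes 61 as lncRNA, 8 as protein-coding and 1 as a pseudogene.

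The 8 members that RefSeq takes as protein-coding are Ndufb1-ps, 1810058I24Rik, Tmem250-ps, Lsmem2, Ptpmt1, Ifi30, Gm37494 and Gm46430. Together they summed to 288 TPM in replicate 1 and 305 TPM in replicate 2, or 11.6% and 11.4% of the members' TPM. Tmem250-ps had 23.1 TPM in replicate 1 and 23.2 TPM in replicate 2, and Lsmem2 had 17.6 and 18.2 TPM. Ptpmt1, a mitochondrial lipid phosphatase needed to make cardiolipin, had 12.5 and 15.7 TPM in replicates 1 and 2. Their noncoding class is thus that of this annotation release.

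Of the 17 nuclear RNAs in the list used here, 5 were members: Malat1, Neat1, Tug1, Lncpint and Firre. Tug1 had 14.9 TPM in replicate 1 and 14.2 TPM in replicate 2. Lncpint, a transcript known to be induced by p53, had 14.7 and 12.9 TPM. Firre, an X-linked nuclear RNA with a repeated domain, had 6.03 TPM in replicate 1 and 6.71 TPM in replicate 2. None of these 3 differed between the hearts by more than 1.5-fold. Xist, which coats the inactive X chromosome of females, stood at 0.01 TPM in replicate 1 and 0 in replicate 2 in these male hearts, and Hotair and Hottip were at 0 in both. Firre was the only member on the X chromosome.

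For Malat1 the deposited transcript values show what its gene level is made of. The full-length transcript (6983 nt, 1 exon) held 40.4% of the gene's TPM in replicate 1 and 42.2% in replicate 2. The other 3 annotated transcripts, 485 to 656 nt long, held 59.6% and 57.8% of the TPM in replicates 1 and 2. The same 3 transcripts took 9.37% and 8.78% of the gene's expected counts, since TPM divides by length. In the second quantification, made from the reads and an index, they received 2.36 estimated counts in replicate 1 and 0 in replicate 2. Malat1 as a gene then stood at 569 TPM in replicate 1 and 641 TPM in replicate 2. Full-length Malat1 alone had 465 and 529 TPM in the first quantification, and 569 and 641 TPM in the second.

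The forms of Neat1 differed between the hearts more than its total. The gene had 13728 expected counts in replicate 1 and 15323 in replicate 2. The long form (20771 nt), which is the one that builds paraspeckles, had 12.8 TPM in replicate 1 and 9.24 TPM in replicate 2. The short form (3004 nt) had 48.6 TPM in replicate 1 and 89.8 TPM in replicate 2. The long form was thus higher in replicate 1 and the short form higher in replicate 2. The log2 ratio of replicate 1 over replicate 2, on scaled expected counts, was 0.51 for the long form (95% counting interval 0.46 to 0.56) and -0.85 for the short form (-0.90 to -0.79). The short form outnumbered the long one 3.80-fold in replicate 1 and 9.72-fold in replicate 2. In the second quantification these ratios were 3.17 and 8.69, and the forms had 15.04 and 10.8 TPM (long) and 47.7 and 94.1 TPM (short) in replicates 1 and 2. Both quantifications put the forms on the same sides. The forms start 2 bases apart on the chromosome, so reads from the shared first part are divided between them by estimation.

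**Figure D2:**
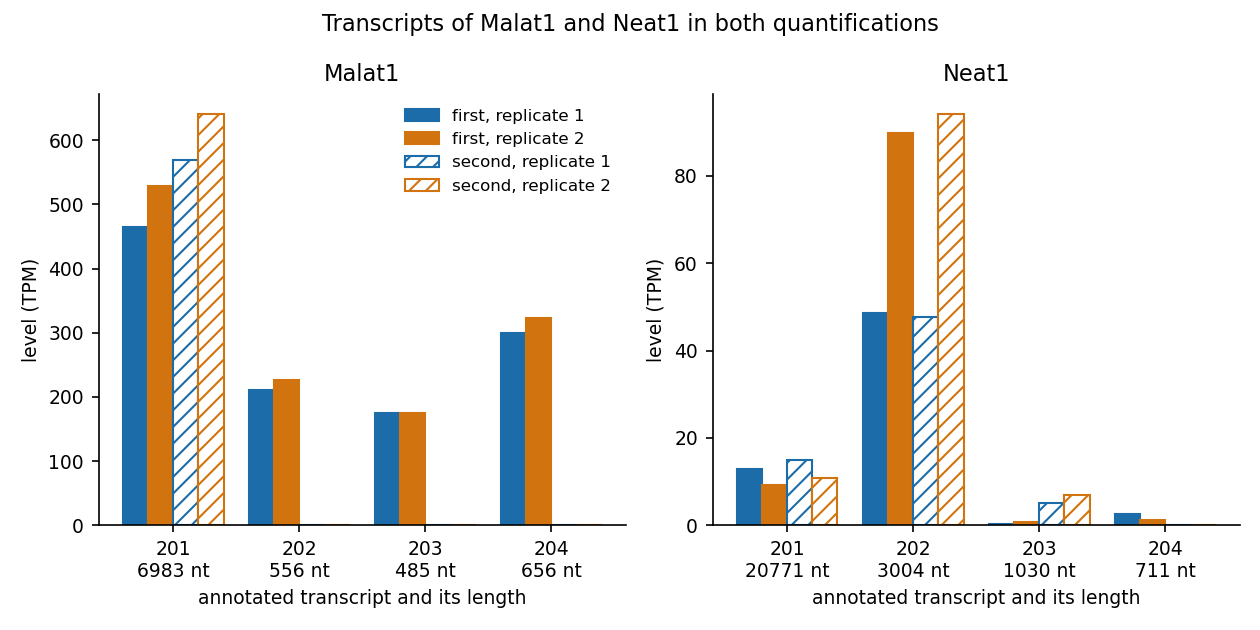
Level (TPM) of each annotated transcript of Malat1 and Neat1, with filled bars for the first quantification, hatched bars for the second, and 1 bar per library. The short Malat1 transcripts are at or near 0 in the second quantification, and the short form of Neat1 is higher in replicate 2 in both.

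The genes of proteins that these nuclear RNAs are known to work with were measured too, as RNA and not as protein. All 14 genes of that list had counts and 13 reached 3 TPM in both hearts. The paraspeckle protein genes Nono and Sfpq had 30.1 and 30.6 TPM in replicate 1 and 28.9 and 28.9 TPM in replicate 2. Pspc1 had 5.6 TPM in replicate 1 and 5.51 TPM in replicate 2. Mettl16, whose protein binds the Malat1 triple helix, had 5.79 and 4.79 TPM in replicates 1 and 2. Over the 14 genes the log2 ratio between the hearts lay between -0.15 and 0.21, with a median of 0.08.

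In the list of 8 RNAs taken here as cytoplasmic, Cyrano and Norad led. The only other member in it was Epb41l4aos, at 3.49 TPM in replicate 1 and 4.32 TPM in replicate 2. Epb41l4aos is also on the list of snoRNA hosts, and where in the cell its RNA lies was not tested. Gas5, of the same list, had 23.3 and 25.9 TPM in replicates 1 and 2. It failed the condition that every transcript be of a noncoding class. Cyrano's transcript of 8300 nt, the one shown with the miR-7 site, held 63.2% of its TPM in replicate 1 and 64.5% in replicate 2. Its transcript of 1381 nt held 36.8% and 35.5%. Norad's transcript of 4915 nt held 83.6% of its TPM in replicate 1 and 91.1% in replicate 2, and the rest went to a transcript of 339 nt that had no estimated count in the second quantification. Both genes thus had the same main transcript in both hearts.

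Gm7292, the near copy of Norad on chromosome 6, had 8.61 TPM in replicate 1 and 10.4 TPM in replicate 2. Over 2537 aligned bases it is 99.2% identical to Norad, so reads can be assigned to either, and the level of Gm7292 in particular is uncertain. In the second quantification it averaged 10.3 TPM. In all, 14 of the 96 genes had a transcript that matched another gene's transcript on the same strand over at least 90% of its length at 95% identity or more. For 8 of these a partner was protein-coding, and in 6 of the 8 it had the higher level.

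The members with a near copy included several among the top 25. AC132253.9 on chromosome 19 and Gm47547 on chromosome 14 are 98.4% identical over 2699 aligned bases. AC132253.9 had 35.6 TPM in replicate 1 and 37.5 TPM in replicate 2, and Gm47547 had 14.4 and 15.4 TPM. Gm10076, which RefSeq calls a pseudogene, matches the ribosomal protein gene Rpl41 at 99.5% identity. It had 16.2 TPM in replicate 1 and 12.8 TPM in replicate 2, against 562 and 557 TPM for Rpl41. Gm49207 matches Ahsa1, a cochaperone of Hsp90, at 99.6% and had 15.1 and 14.2 TPM, against 53.02 and 54.3 TPM for Ahsa1. Both Gm10076 and Gm49207, and also Gm11008, which resembles a family of zinc finger genes on chromosome 2, were listed at 0 in the second quantification.

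Small RNA genes lie on the same strand inside 8 members. Snhg12 holds 5 annotated snoRNA genes, among them Snora44, Snora61 and Snord99. Snora16a is counted among them more than once, at overlapping positions. 2410006H16Rik holds Snord49a, Snord49b and Snord65. Snhg3 holds Snora73a and Snora73b, Snhg6 holds Snord87, and Snhg20 a scaRNA and Mir6516. AI506816 counts as a snoRNA host through Mir3096, which has a microRNA name and is annotated as a snoRNA gene. Host genes of snoRNAs release them from introns, and the host transcript, not the snoRNA, is what is described here. 2410006H16Rik had 10.6 TPM in replicate 1 and 10.4 TPM in replicate 2. Snhg6 had 5.51 and 5.85 TPM, Snhg3 5.10 and 4.60 TPM, Snhg20 3.53 and 4.23 TPM, and Snhg12 3.48 and 3.47 TPM in replicates 1 and 2. The 4 Snhg genes lay at or below the members' median level, and 2410006H16Rik was among the top 25. Of the 20 snoRNA hosts listed, 19 were found, 5 were members, and 5 more reached the level and failed the class condition. The 5 listed members are the 4 Snhg genes and Epb41l4aos. Epb41l4aos holds the snoRNA gene Gm23639 and had 3.49 TPM in replicate 1 and 4.32 TPM in replicate 2. 2410006H16Rik and AI506816 were not on that list.

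Many snoRNA host genes are known to start at a C followed by a run of pyrimidines, as ribosomal protein genes do. RefSeq promoter windows (GRCm38.p6) matched 57 members by name. The RefSeq start was within 10 bases of the GENCODE start in 24 of them and over 100 bases away in 18, up to 3372 bases, so the counts refer to the RefSeq start. A C at the start followed by at least 4 C or T was found in 3 of them (5.26%) and in 2.51% of all 32851 windows, and in 0 of the 5 matched snoRNA or scaRNA hosts. A run of this kind beginning within 10 bases of the start was found in 25 members (43.9%), in 4 of those 5 hosts and in 30.7% of all windows. The windows of 4 of the hosts are shown, 15 bases before the start and 15 from it, with the run in capitals. They lie at chr11:62602862-62602891 (plus strand), chr4:132353672-132353701 (minus), chr4:132308663-132308692 (plus) and chr5:23712653-23712682 (minus).
2410006H16Rik: tcacgcgccgtCTTTCTCTgcggccatcat
Snhg3: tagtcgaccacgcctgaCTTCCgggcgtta
Snhg12: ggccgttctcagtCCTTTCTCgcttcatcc
AI506816: cccgccctggcgccctgCTCTTCCgccgcg
The run begins 4 bases before the RefSeq start in 2410006H16Rik and 2 before it in Snhg12, whose RefSeq start is 55 bases from the GENCODE start. It begins 2 bases after the first base in Snhg3 and AI506816.

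Mir133a-1hg, the host of the muscle microRNAs Mir133a-1 and Mir1a-2, lies antisense within Mib1. It had 4.62 TPM in replicate 1 and 3.70 TPM in replicate 2, from 46 and 37 expected counts. In the second quantification it had 6 and 3 estimated counts, or 1.66 and 0.855 TPM in replicates 1 and 2. Its presence above 3 TPM thus held in the first quantification alone. Of the 13 microRNA hosts listed, 12 were found and this was the only member. Another 2 reached the level and failed the class condition: Dleu2, with 7.53 and 7.41 TPM, and Mir99ahg, with 5.34 and 5.79 TPM in replicates 1 and 2.

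The neighbours named next were chosen after their values were seen. Mhrt and Gm31251 run antisense to Myh7, the slow myosin heavy chain. Mhrt, known from mouse to restrain the chromatin remodeller Brg1 in the stressed heart, had 24.2 TPM in replicate 1 and 28.6 TPM in replicate 2. Gm31251 had 8.14 and 9.55 TPM. Myh7 itself had 741 TPM in replicate 1 and 827 TPM in replicate 2, and Myh6, whose start is 1751 bases from that of Mhrt on the other strand, had 7641 and 8514 TPM. Mhrt averaged 3.37% of the level of Myh7. All 4 genes were higher in replicate 2.

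C130080G10Rik starts 787 bases from Actc1 on the other strand, and its 72.2 and 80.8 TPM in replicates 1 and 2 stand against 4652 and 5183 TPM for Actc1. D830005E20Rik is antisense to Trdn, the anchor of calcium release units. It had 9.15 TPM in replicate 1 and 9.12 TPM in replicate 2, against 116 and 126 TPM for Trdn. 9330158H04Rik is antisense to Chrm2, the muscarinic receptor that slows the heart. It had 20.7 and 20.5 TPM in replicates 1 and 2, against 30.1 and 30.9 TPM for Chrm2, and was the nearest in level to its partner of these genes.

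The next 3 were chosen in the same way. Gm43050 starts 748 bases from Tbx5 and had 3.13 TPM in replicate 1 and 3.23 TPM in replicate 2, with 8.41 and 9.79 TPM for Tbx5. Gm34030 lies 7059 bases from Hand2 and had 5.54 and 4.65 TPM, with 25.2 and 19.8 TPM for Hand2. AC158549.1 lies 7916 bases from the beta-1 adrenergic receptor gene Adrb1 and had 4.28 and 4.06 TPM, with 6.28 and 8.31 TPM for Adrb1. These members were lower than their neighbours in both hearts.

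Over all 96 genes, 35 (36.5%) overlapped a protein-coding gene on the other strand, and 35.2% of the other noncoding genes did. The coding gene was the higher of the pair in 20 of the 35 and the member in 15. Where several coding genes overlapped a member, the one of highest mean TPM was taken. A start within 1 kb of a protein-coding start on the other strand was found for 25 members (26.04%) and for 12.7% of the other noncoding genes. In 24 of these 25 the coding gene was at 3 TPM or more, and in 21 it was above the member. Levels of the pairs were not counted for the other noncoding genes, so nothing particular to the members is read from them. Over 10 kb from any protein-coding gene lay 22 members (22.9%) and 44.8% of the others.

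**Figure D3:**
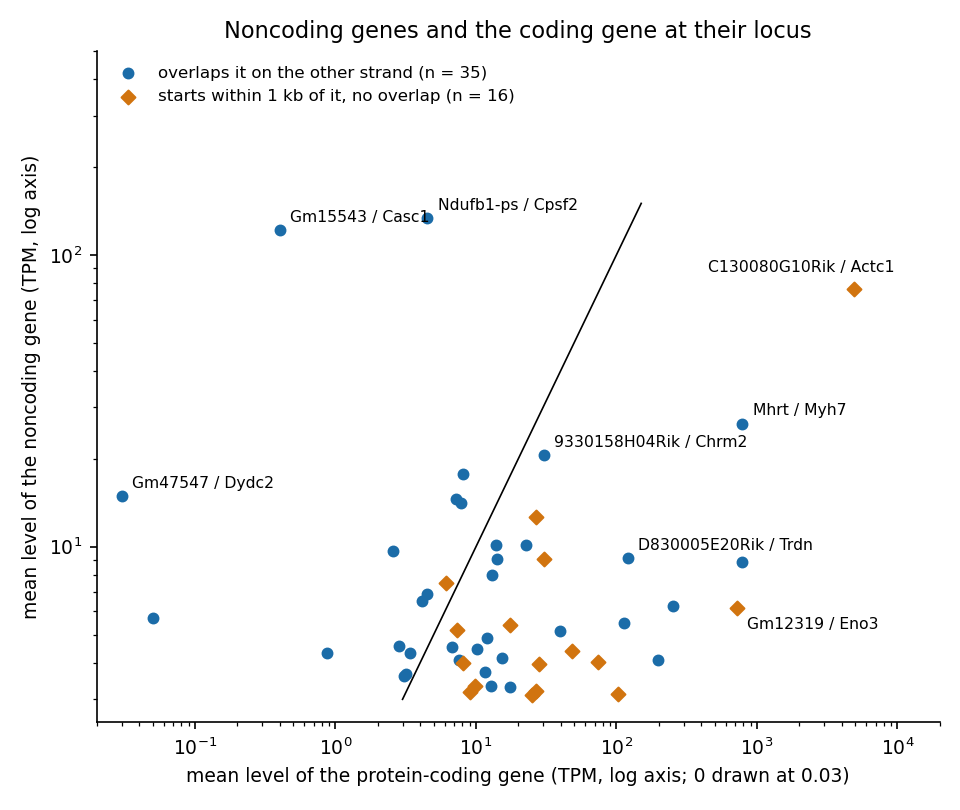
Mean level of each member (vertical, TPM, log axis) against that of the protein-coding gene at its locus (horizontal, TPM, log axis), for 35 members that overlap it on the other strand and 16 that only start within 1 kb of it. The line marks equal levels, and Mhrt and C130080G10Rik lie far to its right while Gm15543 and Ndufb1-ps lie to its left.

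Overlap on the same strand makes a member's counts uncertain, since reads of the coding gene can be taken for it. It was found for 6 members (6.25%) and for 6.41% of the others. Overlap of annotated exons on the same strand was found for 5 members (5.21%) and for 1.52% of the others. The 6 members that overlapped a coding gene were Gm43079 in Acad9, CAAA01066123.1 in Rps6ka4, Gm49749 in Pcnx, Snhg3 in Rcc1, 1300002E11Rik in Map3k13 and 2810013P06Rik in Gm20388. Within 5 kb after the end of a coding gene on the same strand, and without such an overlap, began 10 members (10.4%), where 3.46% of the others did. Among the top 25 these were Lsmem2, 599 bases after Sema3b, Neat1, 4224 bases after Frmd8, and 2410006H16Rik, 2362 bases after Trpv2.

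Between the hearts no member differed 2-fold. The log2 ratio of replicate 1 over replicate 2 was taken on expected counts scaled by TMM factors with a prior count of 1, and calls needed a mean count of 50. Of 91 members at that count, 0 were 2-fold higher in replicate 1 and 0 in replicate 2, where 1.01% and 0.279% of all 12536 genes at that count were (1.28% in either direction). The rule bars members that are low in 1 heart, so a count of 0 is in part fixed by it. At 1.5-fold 1 member of 91 (1.10%) was higher in replicate 1 and 0 in replicate 2, against 2.58% and 1.69% of all genes (4.27% in either direction). The median log2 ratio was -0.03 over the 96 genes and -0.00 over all 15744 genes with a mean count of 10. Below 0 lay 59 members and above 0 lay 37, while 49.7% of all genes lay above 0. The 95% exact Clopper-Pearson counting interval, which covers counting error only, held 0 for 74 members, lay below it for 16 and above it for 6.

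Gm12840 was the one member past 1.5-fold on scaled counts. By TPM, which depends on the length assigned to each form, Neat1 also differed by more than 1.5-fold, at 64.3 TPM in replicate 1 and 101 TPM in replicate 2. Gm12840 had 96 expected counts in replicate 1 and 55 in replicate 2, which gives 0.84 (0.36 to 1.35). Its near copy Gm20186 had 123 and 95 expected counts, which gives 0.41 (0.02 to 0.82). Next toward replicate 1 were Gm43079 at 0.56, Gm12319 at 0.44 and Gm10076 at 0.37. Gm43079 overlaps Acad9 on the same strand, and Gm10076 matches Rpl41. Furthest toward replicate 2 were Gm49749 at -0.50, AU020206 at -0.38, E230013L22Rik at -0.35, Gm10435 at -0.34 and AI480526 at -0.33. Gm49749 lies within Pcnx, and had 67.7 expected counts in replicate 1 and 99.4 in replicate 2. All these genes but Gm10435 and AU020206 had mean counts under 300. For the abundant members counting was precise: Malat1 had -0.14 (-0.15 to -0.13) and Neat1 -0.11 (-0.15 to -0.08). Mhrt had 529 and 645 expected counts in the 2 hearts, which gives -0.24 (-0.41 to -0.07).

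**Figure D4:**
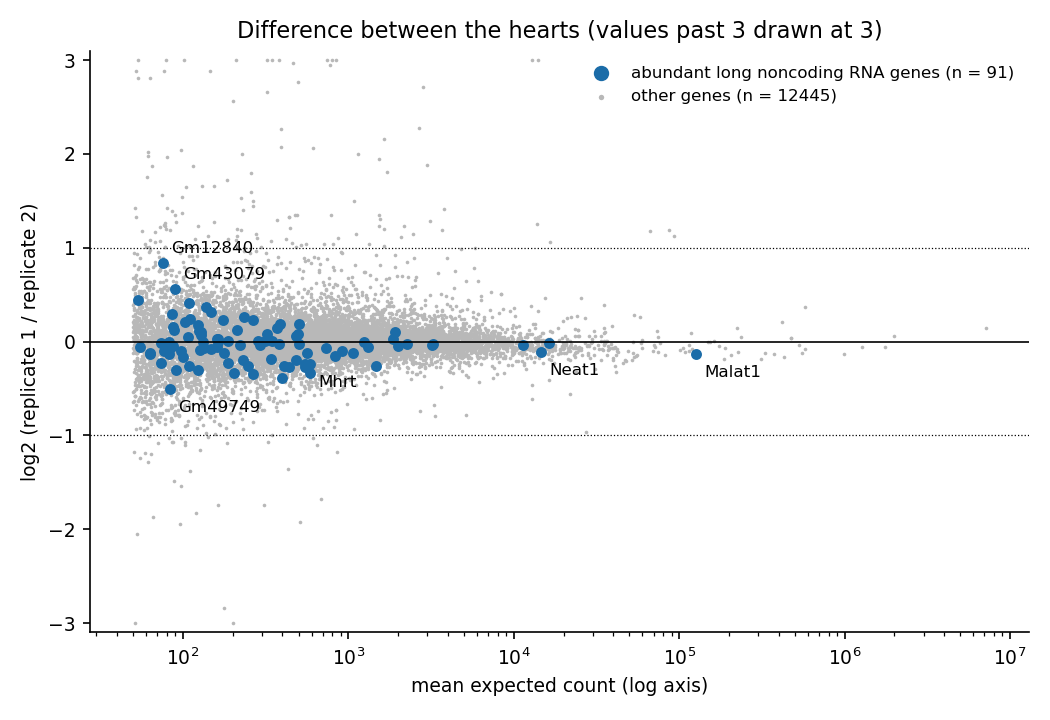
Log2 ratio of replicate 1 over replicate 2 against mean expected count (log axis) for genes with a mean count of 50 or more, with 91 members as large points and the other genes as small ones. No member passes the dotted 2-fold lines, and Gm12840 at 0.84 is the furthest from 0.

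Markers of other cell types differed between the libraries. The 8 adipocyte markers summed to 80.5 TPM in replicate 1 and 9.65 TPM in replicate 2, and the 7 measured ones were all higher in replicate 1. The brown fat gene Ucp1 had 31.6 TPM in replicate 1 and 0.89 TPM in replicate 2. The 6 erythroid markers summed to 20328 and 9336 TPM in replicates 1 and 2, all higher in replicate 1. Of the 10 immediate early genes, 9 were higher in replicate 1, with sums of 105 and 58.3 TPM. The 6 mesothelial markers were all higher in replicate 1, with sums of 24.8 and 18.4 TPM in replicates 1 and 2, and 6 of 8 fibroblast markers were, with sums of 530 and 454 TPM. Endothelial markers (5 of 8 higher in replicate 1) and macrophage markers (4 of 8) went both ways. So did the measured lymphocyte markers (2 of 5 higher in replicate 1) and neural markers (4 of 5). The lymphocyte list summed to 3.7 and 5.26 TPM and the neural list to 7.47 and 5.81 TPM in replicates 1 and 2. No gene of these lists was at 0 in both hearts. The 8 cardiomyocyte markers summed to 31088 TPM in replicate 1 and 34172 TPM in replicate 2, all of them higher in replicate 2, with log2 ratios between -0.13 and -0.04. The part of these differences in the members' values was not tested. Among the members, no fold between the hearts was as large as those of the adipocyte or erythroid lists. Members had to reach 3 TPM in both libraries, which bars a gene as low in 1 heart as Ucp1. Nothing is read from this comparison.

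Of the 61 members with several annotated transcripts, 52 (85.2%) had the same main transcript in both hearts, and 90.9% of all 8219 such genes at this level did. Among the 9 that did not were Lncpint, Gm15417, Snhg3 and AI480526. In Lncpint, with 16 annotated transcripts, no transcript held more than 20.3% of the TPM in either heart. In Snhg3 the transcript of 437 nt held 85.0% in replicate 1 and 20.2% in replicate 2, from 49.3 and 10.6 expected counts, while that of 581 nt held 5.29% and 62.9%. The second quantification gave the transcript of 581 nt most of Snhg3 in both hearts. In 36 members (59.02%) the main transcript was the same in both hearts and both quantifications, and 68.8% of all such genes shared it.

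The 2 deposited quantifications placed most members alike. On the mean of the hearts, 84 of 96 genes lay within 2-fold, and 80 were higher in the second. The median of first over second was 0.83 for the members and 0.86 for all genes. Higher in the first by 2-fold or more were 5 members (5.21%), 3 of them listed at 0 in the second, where 3.75% of all 9540 genes with a mean of 3 TPM or more in the first were. Lower in the first by 2-fold or more were 7 (7.29%), against 1.96% of all genes. At 4-fold these were the 3 genes listed at 0 and 3 lower ones, against 3.38% and 0.304% of all genes. Since the first quantification chose the members, nothing is read from these shares. Over the 93 genes above 0.005 TPM in the second, the correlation of log2 TPM between the quantifications was 0.85, over genes that share the same reads.

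The genes furthest apart between the quantifications were these. Gm15543 (361 nt) had 115 and 128 TPM in the first quantification, and 44.5 and 44.6 TPM in the second, in replicates 1 and 2. Its counts were 1011 and 1134 expected and 134 and 130 estimated. Gm12840 had 5.4 and 3.08 TPM in the first quantification, against 171 and 108 TPM in the second, and Gm20186 had 5.85 and 4.49 TPM against 146 and 95.1 TPM. These 2 genes match each other at 97.5% identity over 628 aligned bases. Snhg20 had 3.53 and 4.23 TPM in the first and 24.5 and 20.6 TPM in the second, where a transcript of 459 nt at 0 in the first received 93.2 and 70.5 estimated counts. Ndufb1-ps had 129 and 137 TPM in the first and 295 and 319 TPM in the second. The cause of these differences was not tested.

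**Figure D5:**
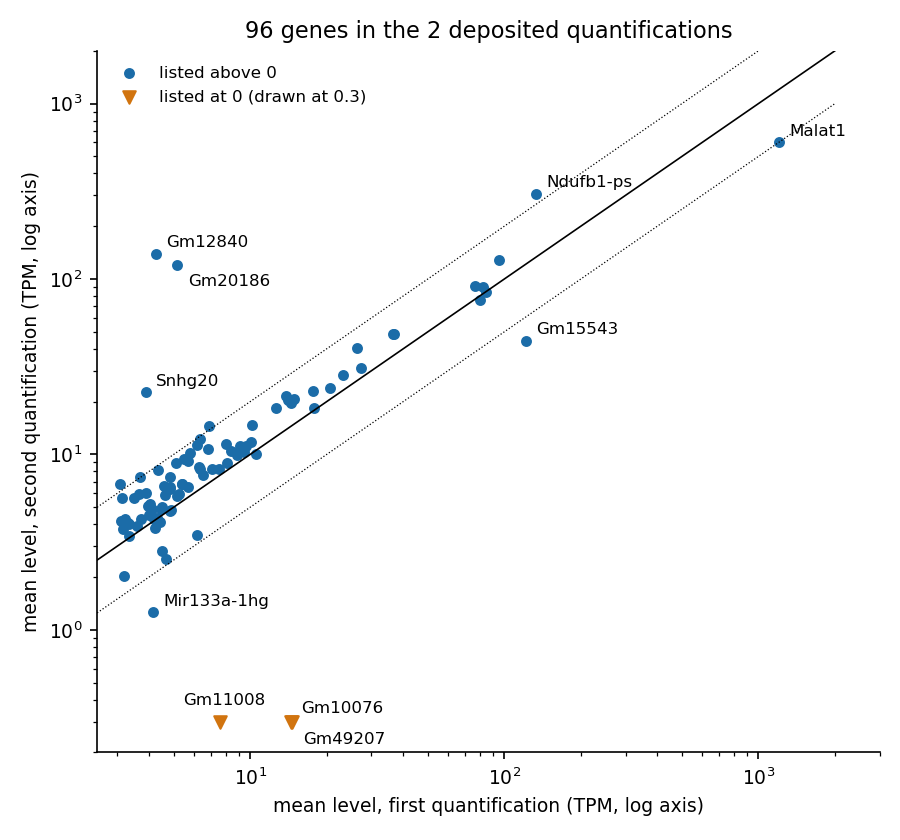
Mean level of each of the 96 genes in the second quantification against the first (TPM, log axes), with the solid line at equality and dotted lines at 2-fold. Gm12840 and Gm20186 lie far above the lines, and Gm10076, Gm49207 and Gm11008 are listed at 0 in the second.

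Of the 20 long noncoding RNAs in the list with a known link to the heart, 19 were found and 5 were members: Malat1, Neat1, Cyrano, Tug1 and Mhrt. Another 3, Hand2os1, Gas5 and Snhg1, reached the level and failed the class condition. Carmn, the host of the smooth muscle microRNAs, had 2.51 TPM in replicate 1 and 3.18 TPM in replicate 2 and fell short in 1 heart. Miat had 0.01 and 0.05 TPM, Fendrr 0 and 0.01 TPM and Chaer1 0.16 and 0.32 TPM in replicates 1 and 2. These RNAs, described in stressed, diseased or embryonic heart, were under 1 TPM in both libraries.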

How the data were processed

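Total RNA of 2 heart libraries was sequenced after rRNA reduction. Expected counts per gene and transcript, TPM scaled over all listed entries, and each transcript's share, in percent, of its gene's TPM were deposited by the authors (first quantification; mm10 and GENCODE M21, from transcriptome alignments, per the deposited sample notes). Estimated counts and TPM of a second quantification, made from the reads and an index, were also deposited by the authors and were summed per gene here. The tools were not given in the sources used here, nor whether CAST variants were allowed for.

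Members, lists and named genes were chosen with earlier results of these data known. Named are the 25 members of highest mean TPM, members of the lists, the 5 furthest at each end between hearts (mean count of 50 or more) and between quantifications, and the 5 genes on each side of the threshold. Other genes are named as neighbours or list members, or were chosen after their values were seen. Counts were scaled by TMM (edgeR 4.0.16, R 4.3.3), with DESeq2 1.42.0 size factors as an alternative. With 1 group there was no test, and calls are a rule of size. The rule was run on simulated counts whose spread was set beforehand and not estimated from these libraries. That run checks the calculation and not the rate of wrong calls in these data. Intervals are 95% Clopper-Pearson intervals on rounded counts. Near copies were found with BLAST 2.17.0 (megablast, same strand). Positions come from GENCODE M21, and promoter and microRNA sequences from RefSeq (GRCm38.p6). Sequences of chromosome 18 genes are not shown.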

Additional observations from a re-analysis of the deposited data

How the results depend on the processing

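The number of members was 252 at 1 TPM and 24 at 10 TPM, and 101 to 105 with either library alone. TPM rescaled to nuclear genes of 200 nt or longer gave 144 and the second quantification 143, of which 88 are among the 96. The members' share of noncoding TPM, 78.5%, was 87.2% of expected counts and 64.6% of the second quantification's TPM, and 78.1% to 78.9% with either library alone. The median log2 ratio stayed between -0.03 and -0.11 under the 7 alternatives, with the lowest value under spike-in scaling, where all genes had -0.07 and 28.1% of the members lay above 0. No member with the mean count required passed 2-fold under any of these or at 3-fold, and 1 passed 1.5-fold. Gm49749 had -1.37 in the second quantification, past 2-fold, from 16.8 and 46.1 estimated counts in replicates 1 and 2, under the minimum of 50. Members differing between quantifications numbered 6 at 4-fold, 14 by counts, and 12 to 17 with either library alone. The main transcript was shared by 26 of 35 members with several transcripts at 1 TPM or more. Pyrimidine starts numbered 0 with 6 or more C or T and 25 with a run within 10 bases. Of 46 named levels, 42 moved in the second quantification by more than the SD between hearts, which is small with n = 2. Of 46 named log2 ratios, 9 had the opposite sign in the second quantification, among them Gm12319 (-0.49), Epb41l4aos (0.25), Lsmem2 (0.24), Snhg20 (0.22), Snhg6 (0.14) and Gm15543 (0.08), and 5 had it under spike-in scaling. Depth limits ratios of the 24 members with mean counts under 100. No paired analysis was possible because there is 1 group.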

Other observations

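Apart from the 6 left out by name, other abundant genes outside the 96 have a noncoding gene type in this annotation release. They failed the condition that every transcript be of a noncoding class, because at least 1 transcript has another type. Their gene type, which Cct6a, Tmem134 and Abhd1 also carry, is that of this release alone and was not checked against RefSeq. Of 323 such genes, 24 reached 3 TPM in both hearts, in a count from which the 12 names left out beforehand were not removed. Hand2os1, which lies beside Hand2 and is also known as upperhand, had 47.0 TPM in replicate 1 and 52.7 TPM in replicate 2. Gas5, a snoRNA host, had 23.3 and 25.9 TPM, Zfas1 10.6 and 12.1 TPM, Dleu2 7.53 and 7.41 TPM, and Snhg1 6.54 and 7.29 TPM in replicates 1 and 2. Gm49708 was the highest of them, at 112 TPM in replicate 1 and 122 TPM in replicate 2. Abhd1 had the largest difference between the hearts of those with a mean count of 50 or more, 272 and 454 expected counts in the 2 hearts, which gives a log2 ratio of -0.69 (counting interval -0.92 to -0.47).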
